A study of Oryza sativa Japonica Group with 17 samples.

Results

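To describe where i-motifs (iMs) formed in untreated rice DNA at neutral pH, the peaks of the CK iM-IP-seq assay at pH 7.0 were examined along the 12 chromosomes. The set comprised the 55062 peaks called against input that shared at least 1 bp with a peak called against IgG. These are the common peaks of CK. They were 55062 of the 57676 input-called peaks of CK (95.5%, 95% Wilson interval 95.3 to 95.6%), and the 10 lists of the whole series held 841685 peaks. The rule used only the overlap of both CK lists, so the number of peaks and their significance against either control are fixed by it. Position, spacing and width were not chosen directly. However, the mean distance follows from the number of peaks, and a wide peak meets a partner more readily.

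The IPs were made on genomic DNA of Nipponbare (Oryza sativa Japonica) seedlings, fragmented and then denatured and refolded in vitro. CK was original DNA without a methylation treatment. Hypermethylated DNA was purified DNA incubated with the methyltransferase M.CviPI, and demethylated DNA was taken from seedlings that had grown with 80 µM zebularine in DMSO for 5 days from an age of 5 days. The labels give 2-week-old seedlings as the growth stage and do not state whether CK seedlings had received DMSO. CK had 2 iMab IP libraries and 1 IgG library at pH 7.0, and a CK input library was not analysed here. The titles give pH 7 for these libraries, whereas a protocol text shared by all samples names a buffer of pH 5.5. Both IP libraries had been merged before peak calling, so no value below has a replicate error, no test between conditions was possible, and intervals cover counting error only.

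An iM is a folded structure in which C-rich strands pair through protonated and unprotonated C bases. Acid conditions favour it, because protonation of C is needed for this pairing. iMab is an antibody fragment that binds folded iMs. An input control shows how DNA fragments are distributed before the IP, and an IgG control shows which fragments are carried along by an antibody without this target. Since the DNA was extracted and refolded in buffer, the peaks mark fragments enriched with iMab after refolding in vitro and not structures present in cells. Whether each of them folds into an iM was not examined. No sequence is shown, because the genome of the build used for the peaks, MSU v7.0, was not used here.

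The CK lists differed in depth. The scores of MACS2, the peak caller, could be solved for the number of IP fragments at each summit and for the local control level at 57600 input-called and 94456 IgG-called peaks, and the remaining 76 and 171 were too significant to solve. The whole CK IP had a background coverage of 12.3 fragments in both lists. It had been scaled by 0.489 to 6.005 fragments in the input-called list and by 0.910 to 11.2 fragments in the IgG-called list, so the input control was the shallower one. In the hypermethylated and demethylated pH 7.0 lists the IP was not scaled, and its background coverage was 11.4 and 14.4 fragments.

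Common iM peaks occurred throughout the rice genome, at 148 peaks per Mb over 373 Mb, and covered 5.34% of it. Density was highest on chromosome 12 (161 peaks per Mb) and chromosome 10 (161 peaks per Mb), and lowest on chromosome 1 (135 peaks per Mb). The 3 longest chromosomes had 136 peaks per Mb in all, whereas the 3 shortest had 158. The covered share ran from 4.57% on chromosome 3 to 6.08% on chromosome 12.

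Summed over the 12 chromosomes, peaks were densest before the middle and sparsest towards the end of the numbering. When each chromosome was divided into 10 equal parts, the fourth part had 176 common peaks per Mb and the last part 123, a ratio of 1.43. The first part had 140 peaks per Mb. The fourth part, and also the next, lay above the chromosome's own mean on 11 of 12 chromosomes. In the last part and the one before it, 0 of 12 chromosomes did so. Chromosome 4 departed from this order, with its highest density in the first part (190 peaks per Mb) and its lowest in the last (104). Chromosome 3 also differed, since its highest density lay just past the middle (168 peaks per Mb). The sparsest part was the first or the one after it on 4 chromosomes, with 114 peaks per Mb on chromosome 1, 114 on chromosome 3, 124 on chromosome 11 and 128 on chromosome 12. The densest parts of all were the fourth of chromosome 5, with 228 peaks per Mb, and the fourth of chromosome 7, with 214.

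**Figure D1:**
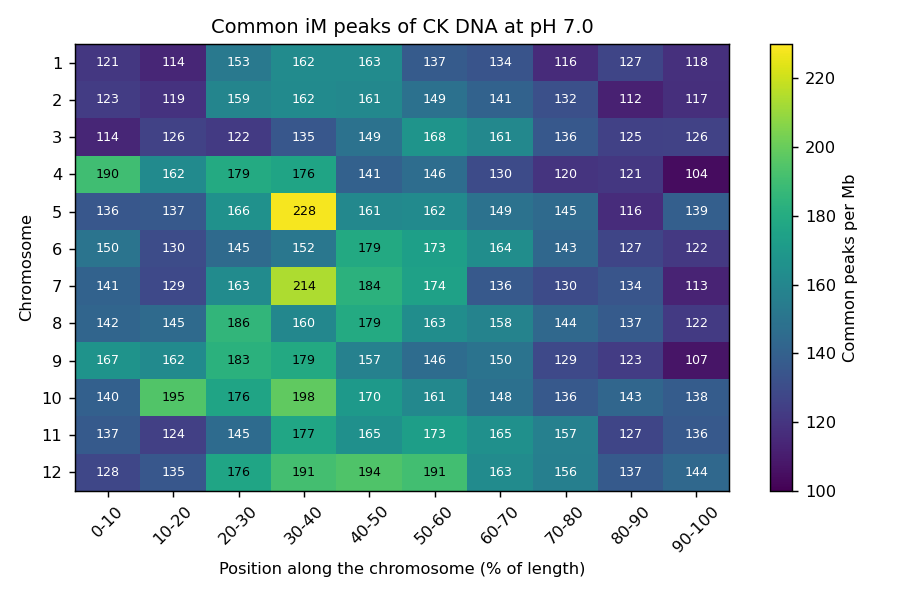
Common iM peaks per Mb (colour and number) in 10 equal parts of the length of the 12 chromosomes (rows) for CK DNA at pH 7.0. Values ran from 104 in the last part of chromosome 4 to 228 in the fourth part of chromosome 5, and the last part was below the chromosome's own mean on all 12 chromosomes.

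On the scale of 1 Mb, the 368 complete bins held from 81 to 256 common peaks, with a median of 146 and quartiles of 125 and 166. Of these bins, 18 held more than 200 peaks and 6 held fewer than 100. The variance over bins was 5.62 times the mean, where independent placement with equal chance would give a value near 1. Neighbouring bins resembled each other, with a Pearson correlation of 0.594 over 356 pairs of bins and a median difference of 16 peaks. This correlation is a description, since adjacent bins share a chromosome region.

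The 5 densest bins lay on chromosomes 4, 5, 6 and 7. On MSU v7.0, the interval from 10 to 11 Mb of chromosome 5 had 256 common peaks, and 13.9% of its bases were covered. From 18 to 19 Mb on chromosome 6 there were 245 peaks, of which 32.7% were in clusters (defined below as runs of at least 3 peaks). Adjacent bins of chromosome 7, from 9 to 10 Mb and from 10 to 11 Mb, had 224 and 232 peaks. The bin from 3 to 4 Mb on chromosome 4 had 230 peaks.

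By contrast, the 6 bins with fewer than 100 common peaks lay on chromosomes 1, 4, 5 and 9, and 3 of them tied at 99. The bin from 34 to 35 Mb of chromosome 4 had the lowest count, 81 peaks and 2.24% of bases covered, followed by 22 to 23 Mb of chromosome 9 with 92 peaks. Chromosome 1 had 93 peaks from 32 to 33 Mb, 99 from 37 to 38 Mb and 99 from 42 to 43 Mb, and chromosome 5 had 99 from 26 to 27 Mb. Peaks in these 6 bins were also narrower, with medians of 246 to 258 bp against 320 to 381 bp in the 5 densest bins.

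Against IgG the CK IP gave 94627 peaks, 1.64 times the number against input, and only 56.6% of them (53546) overlapped an input-called peak. The 2614 input-called peaks without an IgG-called peak and the 41081 IgG-called peaks without an input-called peak were weaker than the common peaks. Median IP fragments at the summit were 59 and 51, respectively, against 86 for common peaks. Their median widths were 257 and 238 bp. Because these peaks had no partner passing against the other control, their lower fragment numbers follow in part from the rule. The IgG-called peaks were wider at the same places, with a median of 402 bp where the common peak had 274 bp.

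The excess of IgG-called peaks held along the whole genome, but its size followed position. IgG-called peaks outnumbered input-called ones in 368 of 368 bins, by a ratio of 1.09 to 2.41 with a median of 1.70. Among the 10 parts of the chromosomes, the ratio was lowest in the fourth (1.46) and highest in the ninth (1.82). IgG-called peaks without an input-called peak varied less over the 10 parts, from 104 to 116 per Mb, a ratio of 1.11 between the extremes. Over single bins they ranged from 57 to 153, with a variance of 2.33 times the mean. Input-called peaks without an IgG-called peak were concentrated before the middle, with 506 in the fourth part and 127 in the ninth.

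**Figure D2:**
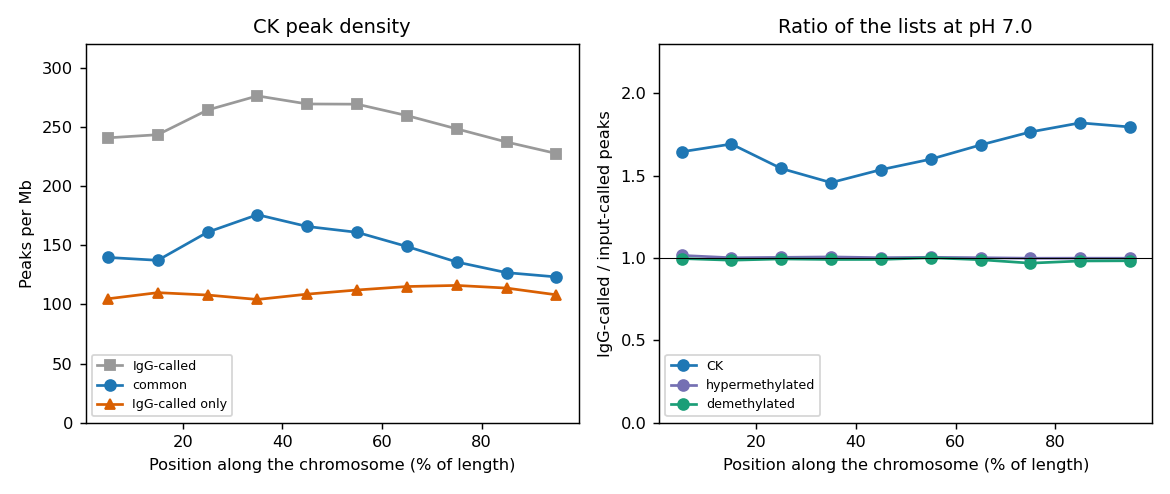
Peaks per Mb (left) and the ratio of IgG-called to input-called peaks (right) by position along the chromosome in percent of its length, summed over 12 chromosomes at pH 7.0. In CK the common peaks ran from 123 to 176 per Mb while the IgG-called peaks without an input-called peak stayed between 104 and 116, and the CK ratio (1.46 to 1.82) lay above those of hypermethylated and demethylated DNA, which were near 1.

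The bins with the lowest ratio were dense ones. From 3 to 4 Mb on chromosome 4 there were 293 IgG-called and 270 input-called peaks (ratio 1.09), and on chromosome 5 from 10 to 11 Mb there were 326 and 288 (1.13). On chromosome 8 from 6 to 7 Mb the counts were 277 and 242 (1.14). The highest ratios were in sparse bins, with 195 against 81 peaks from 34 to 35 Mb of chromosome 4 (2.41) and 211 against 93 from 22 to 23 Mb of chromosome 9 (2.27). Chromosome 3 from 10 to 11 Mb had 261 against 111 peaks (2.35), including 153 IgG-called peaks without an input-called peak, the most of any bin. A dense bin has a high denominator by construction, so part of this order is arithmetic. The bin with the largest number of input-called peaks without an IgG-called peak, chosen after its values were seen, was from 2 to 3 Mb on chromosome 9, with 47 of the 2614.

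The controls themselves behaved differently at the summits. The local control level was expressed as multiples of the background coverage of its own list, which is the lowest level in that list. Its median at common peaks was 1.82 for input and 1.14 for IgG. No level could thus lie below 1, and 13.2% of input and 34.8% of IgG levels were at background. Input was at least 2 times background at 39.2% of common peaks, against 10.5% for IgG. Both lists placed the summit within 5 bp at 90.5% of common peaks. Of these, 49651 were solved in both lists, and the IP fragment number was the same in 99.8% of the solved ones. There the input level exceeded the IgG level at 68.8% of summits and was lower at 26.8%, with a median ratio of 1.37. Hence the median fold was 3.53 against input and 5.24 against IgG, and 75.4% of common peaks had the higher fold against IgG. The input control was also the shallower one, and the part of depth in these levels was not tested.

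In the densest bins the levels of both controls lay closer to each other. For this, the 368 bins were ranked by common peaks and divided into 10 classes. The median input level was 1.83 in the sparsest class and 1.499 in the densest, whereas the IgG level was 1.07 and 1.30. The input level did not fall steadily: it stayed between 1.83 and 1.85 up to the seventh class and was 1.67 in the eighth and ninth. IgG-called peaks without an input-called peak averaged 111 per bin in the sparsest class and 92.6 in the densest. The share of common peaks at the IgG background fell from 42.5% to 23.6%, and the share at the input background rose from 9.61% to 20.2%. The median fold against IgG was 5.73 in the sparsest class and 4.40 in the densest, while that against input was 3.45 and 3.70. The number of IP fragments at the summit was 87 and 83. The classes were ranked by common peaks, which had to pass against input and IgG, so part of these trends follows from the ranking. How far the control and the IP each contributed to the folds was not tested.

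**Figure D3:**
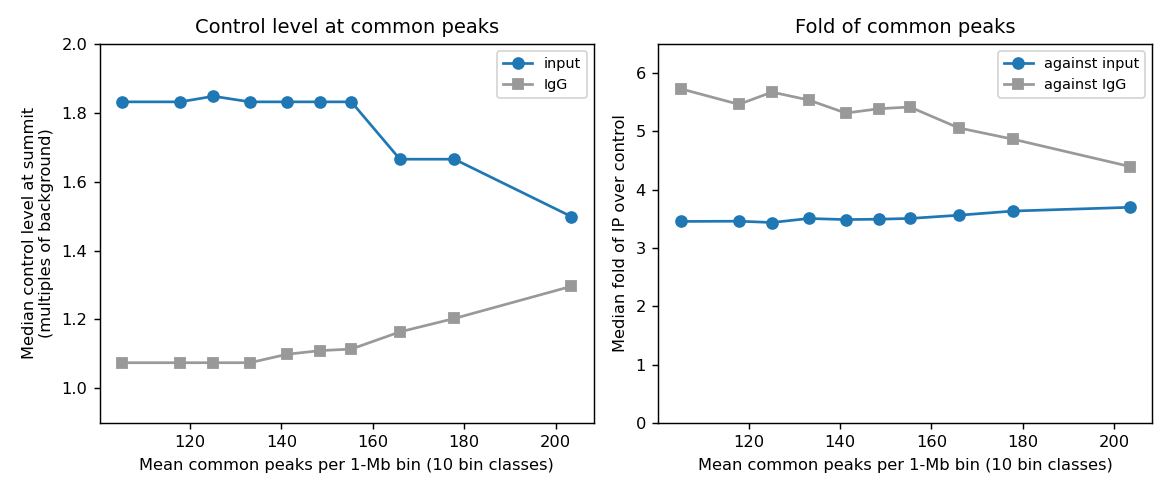
Median control level at the summit in multiples of background coverage (left) and median fold of IP over control (right) for common peaks of CK DNA at pH 7.0, in 10 classes of 1-Mb bins placed at their mean number of common peaks. The input level stayed between 1.83 and 1.85 up to the seventh class and was 1.499 in the densest. From the sparsest to the densest class the IgG level ran from 1.07 to 1.30, and the fold against IgG from 5.73 to 4.40.

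Neighbouring common peaks were a median of 4108 bp apart from summit to summit (95% interval 4051 to 4167 bp), with a mean of 6776 bp. Compared with an exponential distribution of that mean, used as a reference line and not as a test, short distances from 400 bp up to about 3 kb were more frequent. Distances under 2 kb made up 30.0%, against 25.6% in the reference. Very short ones were rarer, with 2.202% under 500 bp against 7.11%. The smallest end-to-start distance was 169 bp and the smallest peak width 168 bp, and MACS2 joins enriched stretches that lie closer than a set gap. At the other extreme, 111 distances exceeded 50 kb, where the reference has 34.4, and 10 exceeded 100 kb. The coefficient of variation was 1.15.

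Short distances followed short ones. After a distance of up to 1672 bp, the lower quartile, the next distance had a median of 3495 bp. After one of at least 9071 bp, past the upper quartile, it was 4902.5 bp. Counts per 100 bp of distance stayed between 951 and 1186 from 500 to 1800 bp, with the largest count at 1300 to 1400 bp.

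**Figure D4:**
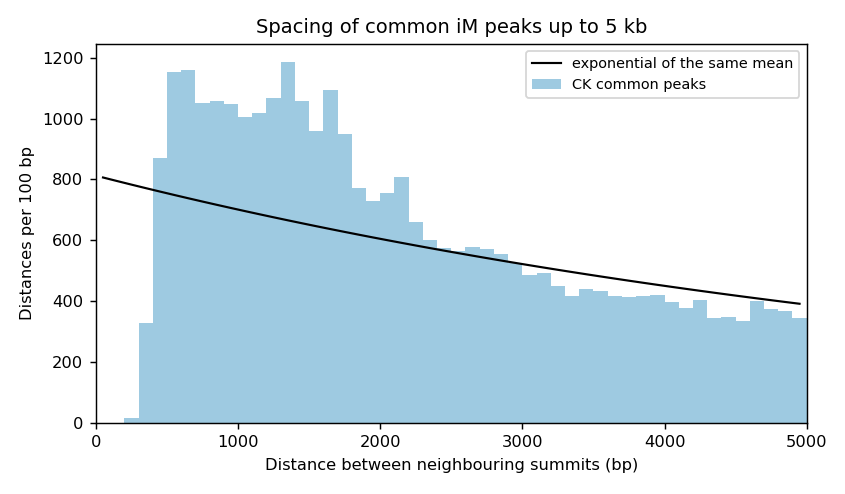
Number of summit-to-summit distances between neighbouring common iM peaks of CK DNA at pH 7.0 per 100 bp of distance, up to 5 kb (bars), with the exponential curve of the same mean (line). Bars rise above the line from 400 bp and reach 1186 at 1300 to 1400 bp, and few distances lie under 400 bp.

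The 3 longest distances lay where input-called peaks were few or lacked an IgG-called partner. On chromosome 11, the summits at 12195343 and 12553798 bp were 358 kb apart, and 4 input-called and 0 IgG-called peaks lay between them. These 4 had a median width of 174 bp, a median input level of 21.5 times background and a median of 478 IP fragments. Read coverage of the rest of the interval was not examined. On chromosome 7, 166 kb separated the summits at 12119245 and 12285015 bp, with 7 input-called and 0 IgG-called peaks between them. Chromosome 4 had a distance of 164 kb from 9733329 to 9896886 bp, with 3 input-called and 6 IgG-called peaks in it. In the same intervals hypermethylated DNA had 11, 13 and 18 common peaks, and demethylated DNA had 3, 9 and 15.

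Clusters were defined as at least 3 common peaks with no more than 1000 bp between the end of one and the start of the next. There were 2143 clusters with 7235 peaks, 13.1% of the set. A further 6362 pairs were found, and 35103 peaks (63.8%) had no neighbour within this distance. Only 161 clusters had 5 or more peaks, and the largest had 10. The clustered share was 6.96% in the sparsest class of bins and 21.1% in the densest. These classes were ranked by common peaks and the joining distance was fixed, so part of this difference follows from the ranking. By chromosome the share ran from 10.6% on chromosome 3 to 16.0% on chromosome 4.

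Peaks in larger runs were wider and stood against a different control level. Median width was 262 bp for isolated peaks, 328 bp in runs of 3 and 393 bp in runs of 6 or more. The fold against IgG was 5.39 for isolated peaks and 3.72 in the largest runs, with IgG levels of 1.07 and 1.66. Against input the fold was 3.49 and 3.91, with input levels of 1.83 and 1.499. The IP fragments at the summit differed by little, with 85 and 88.5.

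Among the 3 clusters of 10 peaks, the most compact spanned 7630 bp on chromosome 5 from 12973697 to 12981326, and 51.3% of it was covered. Both control levels there were at background (median 1), and the fold against input ranged from 2.87 to 7.19. The cluster on chromosome 2 from 25059488 to 25071044 had a lower median fold of 3.02. On chromosome 5 from 29919852 to 29937254, 80.3% of the span was covered and the median fold was 10.8, with control levels of 2.17 times background for input and 2.95 for IgG. Hypermethylated DNA had 3, 9 and 3 common peaks in these spans, and demethylated DNA 6, 5 and 3. In the last of these the treated peaks covered 16778 and 16720 bp against 13966 bp in CK. In the first, hypermethylated peaks covered 6829 bp and demethylated ones 2937 bp, against 3916 bp in CK.

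Common peaks were narrow as a rule. Their median width was 274 bp (273 to 276), with quartiles of 212 and 404 bp, and the range was 168 to 8110 bp. Peaks of at least 1000 bp numbered 1706 (3.10%) and held 11.8% of the covered bases. Wider peaks had a higher fold against input and a higher IgG level. For peaks from 168 bp to under 200 bp the median fold against input was 3.03 and the IgG level 1.04, and for those from 1000 to under 1500 bp they were 5.48 and 1.88. Fold against IgG did not follow width in this way, with 4.79 and 4.31. The median number of IP fragments at the summit was 69 and 111 in these classes.

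**Figure D5:**
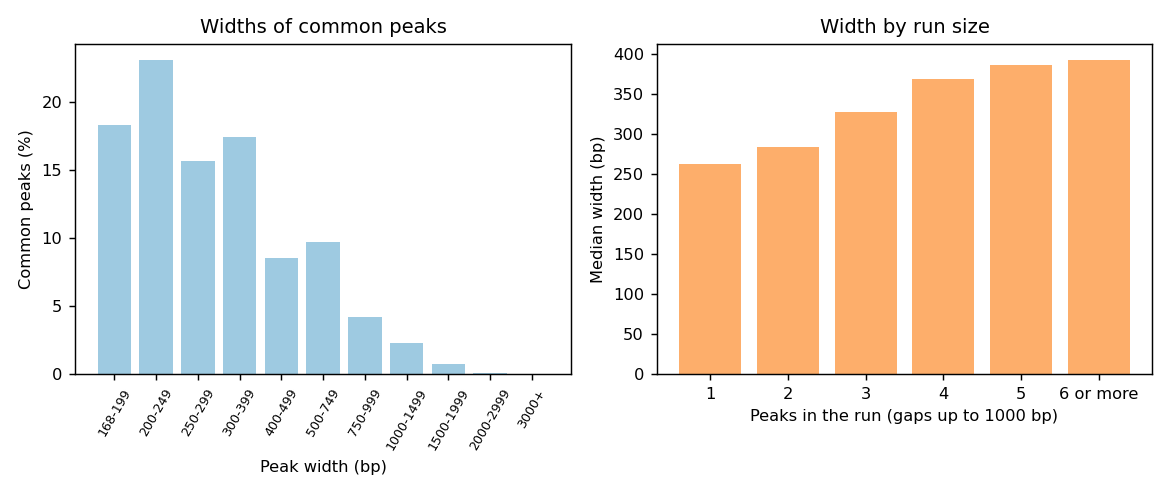
Share of common iM peaks of CK DNA at pH 7.0 by width class in bp (left), and median width in bp of peaks in runs of 1 to 6 or more peaks joined by gaps of up to 1000 bp (right). Most peaks are under 400 bp wide, and the median rises from 262 bp for isolated peaks to 393 bp in the largest runs.

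The widest common peaks were at the ends of 2 chromosomes. The widest, 8110 bp, lay on chromosome 5 from 29883911 to 29892020 and the next, 6036 bp, from 29839505 to 29845540, 111885 bp before the last peak end on that chromosome. The next in width, 5229 bp, was at the start of chromosome 6 from 20037 to 25265. All 3 were strong against input (fold 14.3, 13.3 and 13.4) and less so against IgG (5.50, 5.22 and 9.87). At these places the hypermethylated peaks were 9254, 17616 and 8352 bp wide, and the demethylated ones 9121, 17640 and 7878 bp.

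Both regions, chosen after their values were seen, were dense as a whole. The last 157 kb of chromosome 5, from 29800001 to 29957425, held 56 common peaks (356 per Mb) that covered 40.4% of the bases, with 18 peaks of at least 1000 bp. The first 100 kb of chromosome 6 held 43 peaks that covered 32.8%. By comparison, the other 22 chromosome ends of 100 kb held 1 to 24 peaks, with a median of 14.5, and 0.237 to 16.3% of them was covered. The median 100-kb window with a peak had 4.57% covered, and 17.2% at the 99th percentile. The median control level was 2.17 times background for input and 2.90 for IgG at the end of chromosome 5, and 1.67 and 2.15 at the start of chromosome 6, against 1.82 and 1.14 over all common peaks. The part of the controls in the peaks there was not tested.

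The most significant common peak of each chromosome, by its −log10 q-value against input, was looked up for all 12. On chromosome 6 it lay from 28182438 to 28183338, with a −log10 q-value of 4069 and a fold of 8.59 against input and 7.46 against IgG. Chromosome 10 followed, from 20466203 to 20466824, with 3520, 13.5 and 8.83. On chromosome 12 the values from 20927794 to 20928820 were 2894, 10.7 and 8.93. The lowest of the 12 was on chromosome 7 from 11938410 to 11938772, with a −log10 q-value of 169 and folds of 9.70 and 4.97, where the input stood at 4.66 and IgG at 9.31 times background. Chromosome 11, from 12164519 to 12164824, had the lowest fold, 3.82 against input.

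The other 7 lay from 33553197 to 33553650 on chromosome 1, 14278601 to 14279143 on chromosome 2, 25247476 to 25247994 on chromosome 3, 9106353 to 9107212 on chromosome 4, 12887916 to 12888823 on chromosome 5, 9262582 to 9263675 on chromosome 8 and 2494796 to 2495183 on chromosome 9. Their folds against input were 6.97 to 23.6, the highest on chromosome 8. All 12 overlapped a common peak of hypermethylated and of demethylated DNA. The share of all CK common peaks that did so was not computed, so this count is not a trait of these 12. On chromosome 3 the IgG level was 56.8 times background, and the input level could be solved on chromosome 7 alone. Repeat annotation was not used here.

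Beside the treated DNA at pH 7.0, CK had the fewest common peaks, 55062 against 67787 in hypermethylated and 73109 in demethylated DNA. CK had fewer in 366 and 368 of 368 bins, respectively. The difference was widest where CK was sparse, with CK at 0.741 of the hypermethylated and 0.710 of the demethylated count in the sparsest class of bins, and at 0.877 and 0.807 in the densest. Since the classes were ranked by CK itself, part of this order follows from the ranking. The order reverses with the list: by IgG-called peaks alone CK had 1.32 times the hypermethylated and 1.18 times the demethylated number. CK common peaks were narrower (274, 437 and 424 bp), covered less of the genome (5.34, 10.8 and 11.4%), and had a lower share in clusters (13.1, 18.7 and 19.7%), for CK, hypermethylated and demethylated DNA. These contrasts also depend on the list. All IgG-called CK peaks had a median width of 315 bp, covered 10.3% of the genome and had 22.0% in clusters. The same values of the treated IgG-called peaks were not compared. The smallest width of a list was 168 bp in CK, 199 in hypermethylated and 206 in demethylated DNA, and coverage also differed. Their part in these differences was not tested.

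The numbers of peaks against both controls differed most in CK. IgG-called over input-called peaks were 1.64 in CK, 1.00 in hypermethylated and 0.989 in demethylated DNA, and the CK ratio was the highest of the 3 in 368 of 368 bins. Over the 10 parts of the chromosomes it stayed at or below 1.02 in hypermethylated DNA and between 0.969 and 1.002 in demethylated DNA. The median input level at common peaks was 1.82 times background in CK, against 1.05 and 1.08, whereas the IgG level was 1.14, 1.07 and 1.16. When the IgG-called CK summits were scaled to the coverage of the input-called list, 98.3% still passed and the ratio was 1.61, with all 368 bins above 1. This scaling applied a fixed factor and did not add the counting noise of a shallower control, so it cannot give the part of depth. The shallower input of CK moves with the difference between the lists, and its part was not tested.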

How the data were processed

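Per the methods, the authors trimmed reads with fastp, aligned them to MSU v7.0 with BWA 0.7.17, kept mapping qualities of at least 10, removed duplicates, merged replicates and called peaks with MACS2 2.1.1 at a q-value of 0.05. Each deposited peak has a position, a summit, a fold (ratio of IP pileup to local control level, each plus 1), a −log10 p-value and a −log10 q-value (a score) given by the authors' caller. Pileup and control level were solved from fold and p-value as a Poisson score, which gave whole fragments within 0.05 for all CK peaks tried (−log10 p-value up to 250). The lowest control level of a list is its background coverage.

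Coordinates are 1-based. Chromosome length was the largest peak end in any of 10 lists, and 4 lists at pH 5.5 served only for this. Peaks were assigned to bins by midpoint, and incomplete last bins were left out. Medians have order-statistic 95% intervals. Scripts used Python 3.11.15, numpy 2.4.6, pandas 2.3.3 and scipy 1.17.1, and were tested on simulated data, with overlaps and clusters checked against bedtools 2.31.1. The name of the demethylated pH 7.0 list decided its condition, since its IP labels name a hypermethylated list.

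The peaks and bins named are the most significant peak of each chromosome, the 3 widest peaks, the 3 largest clusters, the 3 longest distances, the 5 densest and 5 sparsest bins (6 with a tie), and the 3 highest and 3 lowest control ratios (bins of at least 20 input-called peaks). The peak set, these rules and the alternatives were chosen with earlier results of these data known.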

Additional observations from a re-analysis of the deposited data

How the results depend on the processing

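Of 40 alternative values for 10 results, 21 stayed within their limits, 17 moved and 2 reversed. The reversed ones were the CK counts over hypermethylated (1.32) and demethylated (1.18) counts by all IgG-called peaks. Median spacing was 3804 bp for all input-called peaks, 2542 bp for all IgG-called peaks, 5125.5 bp at a −log10 q-value of at least 5, 10444.5 bp at a fold of at least 4 and 3758 bp from end to start. The clustered share was 16.0%, 22.0%, 9.55% and 3.68% for the same 4 peak sets, 2.71% with a joining distance of 500 bp and 29.97% with 2000 bp. Median width was 315 bp for IgG-called peaks, 289 bp at the stricter q-value and 327 bp at the stricter fold. With a fold of at least 4 in both lists, 16369 common peaks remained, and IgG-called over input-called peaks were 2.51. The variance over mean of bins was 3.17 for IgG-called peaks. The 90th over the 10th percentile of bin counts stayed between 1.34 and 2.09 under all alternatives run, with 1.64 for the common peaks. No paired analysis was possible because both IP libraries had been merged before peak calling, and for the same reason no replicate could be left out. Depth limits the weakest calls: the lowest IP number at a common summit was 30 fragments.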

Other observations

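The 5 common peaks with the highest fold against input, chosen after their values were seen, differed in how they stood against IgG. On chromosome 3 from 24040203 to 24040567 the fold was 27.4 against input and 26.9 against IgG. On chromosome 5 from 10192301 to 10194273, a peak of 1973 bp, it was 31.2 against input, with 445 IP fragments and the input level at background. The IgG-called peak paired with it was 975 bp wide, with a fold of 2.33 and an IgG level of 2.85 times background at its own summit. These values do not give the same IP fragment number, so both folds are not of the same position. The treated lists had folds of 46.7 (hypermethylated) and 37.8 (demethylated) against input at this place. The highest fold of all common peaks was 33.2, on chromosome 6 from 19807621 to 19809315, with 18.8 against IgG. On chromosome 10 from 10833361 to 10834232 the folds were 31.8 and 14.9. The peak on chromosome 2 from 18069603 to 18069807, with folds of 27.7 and 5.78, overlapped no common peak of hypermethylated DNA and 1 of demethylated DNA.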
